A study of Mus musculus with 6 samples.

Results

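The tripartite motif (TRIM) family was taken as every protein-coding gene of the deposited count table whose symbol is Trim followed by a number and at most 1 letter, which gave 68 of 53715 genes. The genes were chosen by symbol and biotype, and no measured value entered that rule. The family itself was selected on Caspase3 and GFP differences of these libraries that were already known, so the counts below are descriptions beside the share over all genes tested, and nothing is supported by them. TRIM proteins carry a RING finger, 1 or more B-boxes and a coiled coil, and most act as ubiquitin ligases whose target is set by a C-terminal domain. Part of the family is induced by interferon and acts against viruses or tunes the sensors that detect viral RNA and DNA. Other members are steadily expressed in neurons, where they are known for roles in axon growth, microtubule order and transcriptional repression.

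Poly(A) RNA of mouse piriform cortex, the main cortical area for smell, was sequenced in 6 libraries. All came from Gad2-Cre mice, in which the Gad2 gene, active in GABAergic neurons, drives Cre recombinase. In the Caspase3 group (3 libraries) AAV-DIO-Caspase3, which Cre switches on and which kills the cell that expresses it, was injected into the piriform cortex on 1 side, and in the GFP group (3 libraries) AAV-DIO-GFP was injected in the same way. The stated aim was to profile the tissue after loss of Gad2 neurons. Age, sex, the interval after injection and the side sampled are not given in the sources used here, nor is it stated that each library came from a separate animal. The p-values therefore reflect how far the libraries of a group differed from each other, and that spread may be technical. In bulk tissue, fewer cells of a type and less RNA per cell cannot be told apart.

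Library totals were 20424581 to 24227361 counts in the Caspase3 group and 22101015 to 26268377 in the GFP group, so that 3 counts stood for 0.118 to 0.142 CPM, the count of a gene scaled to its library total and TMM factor. Gad2, the Cre driver gene, had a mean of 104.6 CPM in the GFP libraries (SD 12.8, n = 3) and of 34.4 CPM in the Caspase3 libraries (SD 6.66, n = 3), with log2 fold change -1.604 ± 0.15 (SE; edgeR quasi-likelihood adjusted p = 0.0037). Of the 3 GABAergic neuron markers tested, Gad2 was lower and the other 2 did not pass in edgeR, beside 0.114% of all genes tested that were lower. The 3 markers summed to 110.2 to 262.0 CPM in the Caspase3 group and 342.6 to 527.9 CPM in the GFP group. The neuron markers Rbfox3, Snap25 and Slc17a7 summed to 3974 to 5616 CPM across the libraries. GFP replicate 3 stood apart in striatal projection neuron markers, at 290.9 CPM summed against 64.7 to 89.5 CPM in the other 5 libraries.

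Of the 68 TRIM genes, 46 passed the filter on low counts. At a Benjamini-Hochberg adjusted p under 0.05 over the 16721 genes tested (edgeR quasi-likelihood), 8 of the 46 were higher in the Caspase3 group, which is 17.4% beside 1.53% of all genes tested. These were Trim30a, Trim30d, Trim34a, Trim21, Trim25, Trim12c, Trim12a and Trim56. None was lower, beside 0.114% of all genes tested, although 3 of the 38 members that did not pass had a negative difference at an unadjusted p under 0.05, and DESeq2 and limma-voom also called 0 lower. The median log2 fold change was 0.09 over the 46 tested members, 1.92 over the 8 that rose and 0.02 over the other 38, beside -0.0011 over all genes tested. Within the 38, 30 lay within 0.5 and 24 within 0.2 of 0 on the log2 scale. For 14 members all Caspase3 libraries had a higher CPM than all GFP libraries (30.4%, beside 8.96% of all genes tested) and for 5 all were lower (10.9%, beside 6.29%). The differences that passed thus lay in a minority of the family, as the plot of log2 fold changes shows.

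**Figure D1:**
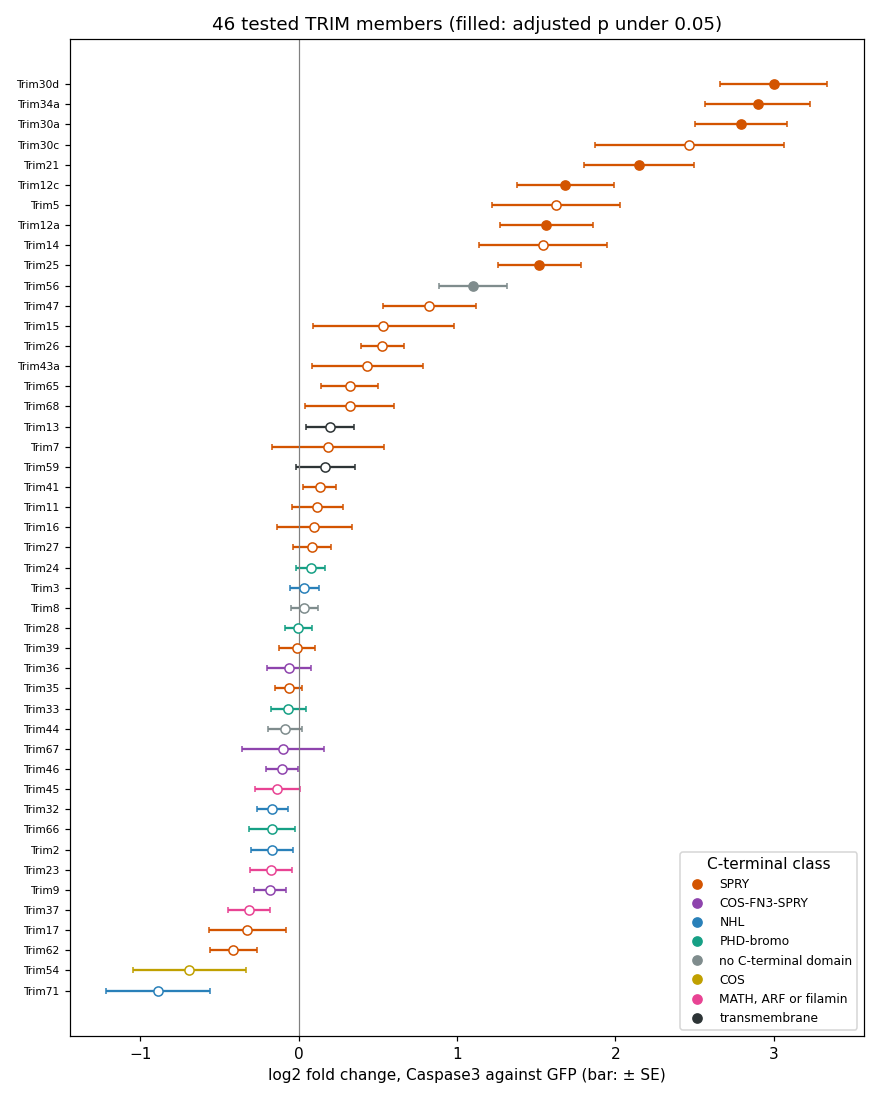
Log2 fold change (Caspase3 against GFP, x axis, bars ± SE) of the 46 tested TRIM genes, ordered by size and coloured by C-terminal class, with filled points for adjusted p under 0.05. The 8 filled points are 7 SPRY-domain genes and Trim56, and 24 of the 38 open points lie within 0.2 of 0.

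Of the 8 TRIM genes that rose, 5 lie in 1 place. Chromosome 7 holds a TRIM cluster at chr7:104218793-104507849 (GRCm38), 289.1 kb long, with 10 members. In the cluster 7 members were tested and 5 rose, beside 1.53% of all genes tested that rose. Trim30a (ENSMUSG00000030921, chr7:104409025-104465193, minus strand) encodes a mouse protein that limits NF-kB signalling. Its level was 44.2, 38.6 and 22.1 CPM in Caspase3 replicates 1 to 3 and 6.61, 3.60 and 4.96 CPM in GFP replicates 1 to 3. Every Caspase3 library lay above every GFP library, and the difference was 6.93-fold (log2 fold change 2.79 ± 0.29, SE; adjusted p = 0.0041). Trim30d, its neighbour and close relative (chr7:104470014-104507849, minus strand), was at 26.1, 20.8 and 12.6 CPM in the Caspase3 libraries against 3.72, 1.94 and 1.80 CPM in the GFP libraries. It had the largest fitted fold among the 8, at 7.99-fold (log2 2.999 ± 0.34; adjusted p = 0.0046), again with no overlap. A processed pseudogene, Gm16464, which lies inside the span of Trim30d, was the other tested gene of the cluster interval and did not pass (log2 fold change -0.08 ± 0.45; adjusted p = 0.97; 75 counts in all).

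Trim34a (ENSMUSG00000056144, chr7:104244457-104262234, plus strand) is the mouse counterpart of human TRIM34, which acts on retroviral capsids. It was at 17.1, 11.2 and 7.37 CPM in the Caspase3 libraries and 2.05, 1.42 and 1.32 CPM in the GFP libraries. The groups were separate, with a 7.45-fold difference (log2 2.90 ± 0.33; adjusted p = 0.0046). Trim12c (chr7:104338754-104353362) and Trim12a (chr7:104299894-104315466), both on the minus strand, are mouse relatives of primate TRIM5, a factor that binds incoming retroviral capsids. Trim12c was at 21.1, 17.6 and 11.3 CPM in the Caspase3 libraries and 7.73, 3.84 and 4.04 CPM in the GFP libraries. Trim12a was at 16.3, 12.5 and 10.2 CPM in the Caspase3 libraries and 6.66, 3.28 and 3.29 CPM in the GFP libraries. For both genes GFP replicate 1 was the nearest to the Caspase3 group without reaching it, and the folds were 3.21 (log2 1.68 ± 0.31; adjusted p = 0.031) and 2.96 (log2 1.56 ± 0.29; adjusted p = 0.034).

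**Figure D2:**
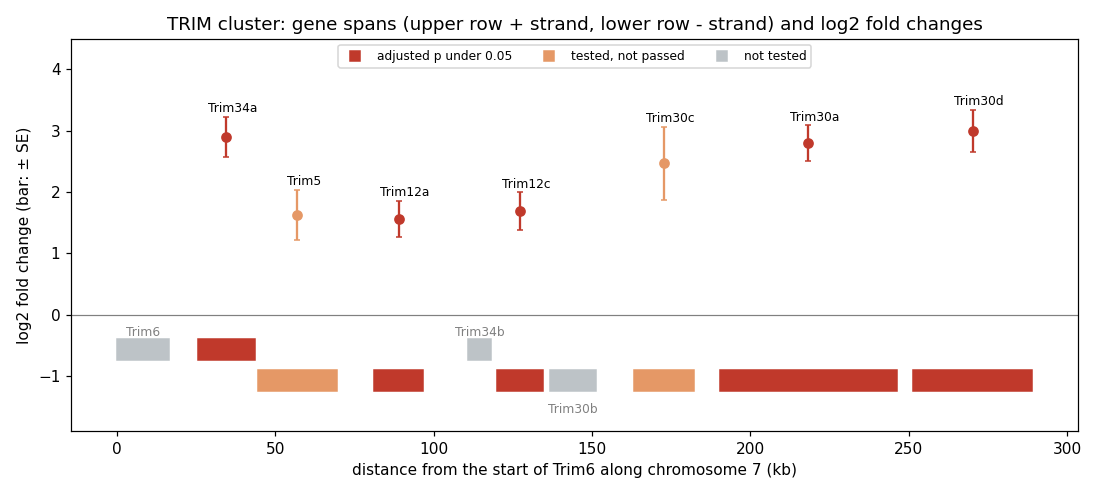
Gene spans of the 10 TRIM genes of the chromosome 7 cluster by distance from the start of Trim6 (x axis, kb; bars by strand) with the log2 fold change ± SE of the 7 tested ones (y axis). The 5 genes at adjusted p under 0.05 run from 1.56 for Trim12a to 2.999 for Trim30d, and Trim5 and Trim30c, with few counts, did not pass.

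The other 5 genes of the cluster were scarce. Trim30c was at 1.47, 0.590 and 0.433 CPM in the Caspase3 libraries and 0.140, 0.158 and 0.132 CPM in the GFP libraries, without overlap (log2 fold change 2.47 ± 0.60; adjusted p = 0.106). Trim5 was at 2.46, 1.41 and 1.30 CPM against 0.838, 0.356 and 0.482 CPM, also without overlap (log2 1.63 ± 0.41; adjusted p = 0.118). Neither passed the threshold in edgeR, while in DESeq2 Trim5 did (adjusted p = 0.0452) and Trim30c did not (adjusted p = 0.0574). Trim30c, Trim5, Trim14 and Trim43a reached the cutoff of the filter on low counts in 3 Caspase3 libraries each. In the GFP group 0 libraries reached it for Trim30c, and 2 each for Trim5, Trim14 and Trim43a. Trim30b (34 counts in the Caspase3 group, 5 in the GFP group), Trim34b (20 and 8 counts) and Trim6 (26 and 20 counts) did not pass the filter on low counts, and with no filter Trim30b was called higher. Several cluster genes are near-copies, and the counting could have split their reads. Of the 50-base stretches in a gene's transcripts, 39.8% of those of Trim34a occur in another gene, mostly Trim34b, as do 33% of those of Trim12c and 36.3% of those of Trim5, which share most with each other. The shares were lower for Trim12a (10.4%), Trim30d (7.49%) and Trim30a (5.98%). The values of Trim34a, Trim12c and Trim5 are uncertain to that extent.

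Outside the cluster 3 of 39 tested members rose, beside 1.53% of all genes tested. Trim21 (ENSMUSG00000030966, chr7:102557921-102565486, minus strand), a cytosolic antibody receptor that sends antibody-bound virus to the proteasome, was at 17.5, 10.1 and 7.84 CPM in the Caspase3 libraries and 3.82, 1.86 and 2.32 CPM in the GFP libraries. The groups did not overlap, with a 4.44-fold difference (log2 2.15 ± 0.35; adjusted p = 0.018). Trim25 (ENSMUSG00000000275, chr11:88999376-89020293, plus strand), a ubiquitin ligase that works with the RNA sensor RIG-I and the antiviral protein ZAP, was at 57.0, 36.0 and 29.98 CPM against 18.9, 12.1 and 11.9 CPM. Here too all 3 Caspase3 libraries exceeded all 3 GFP libraries, by 2.87-fold (log2 1.52 ± 0.26; adjusted p = 0.023). Trim56 (ENSMUSG00000043279, chr5:137105644-137116209, minus strand), an RNA-binding ligase known to act in antiviral signalling, was at 68.9, 49.2 and 43.1 CPM against 32.6, 20.1 and 22.6 CPM. It was the most abundant of the 8 by CPM in every library and moved least, by 2.14-fold (log2 1.10 ± 0.22; adjusted p = 0.042). By genomic position, no exon of the 8 overlaps an exon of another tested gene on either strand. Among untested genes, Trim34a overlaps 609 bases of Gm47248 on the opposite strand and Trim12c 100 bases of Gm27995 on the same strand.

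**Figure D3:**
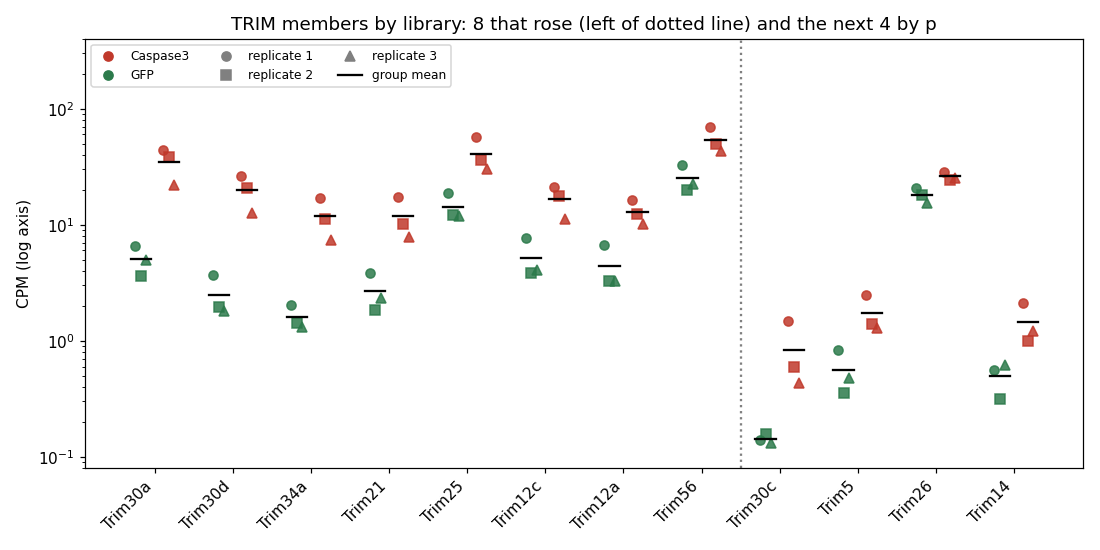
CPM (y axis, log scale) of the 8 TRIM genes that rose and the next 4 by p in each library, with colours for the groups, marker shapes for replicate numbers and black lines for group means. All 12 genes have 3 Caspase3 values above 3 GFP values, beside 8.96% of all genes tested. The 12 were picked by smallest p in these same libraries, so that separation was largely set by the choice. Replicate 1 is the highest of its group for each of the 8 that rose.

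The same libraries were high for all 8 genes. Summed over them, CPM was 268.2, 196.0 and 144.5 in the Caspase3 libraries and 82.1, 48.1 and 52.2 in the GFP libraries. Their share of all TRIM CPM was 9.12%, 5.93% and 4.85% in the Caspase3 libraries and 2.56%, 1.44% and 1.70% in the GFP libraries. Caspase3 replicate 1 was the highest Caspase3 library for 8 of 8, and GFP replicate 1 the highest GFP library for 8 of 8. Among the 38 members that did not pass, the same libraries were highest for 14 and 9, and among all 255 genes that rose the shares were 89.8% and 77.6%. Marker genes of immune cells moved along with them, beside 1.53% of all genes tested that rose. Microglial markers (4 of 6 rose) summed to 406.0 to 546.4 CPM in the Caspase3 group and 274.5 to 319.2 CPM in the GFP group. T and NK cell markers (2 of 2 tested rose, 5 in the table) summed to 2.13 to 4.73 CPM against 0.175 to 0.791 CPM, with Ncr1 at 0 in every GFP library. In GFP replicates 2 and 3 even their sum (0.316 and 0.175 CPM) was under the filter cutoff of 0.443 CPM. The tested ones thus passed the filter mainly through Caspase3 libraries, and their count of 2 of 2 was largely set by it. Monocyte and macrophage markers (1 of 3 tested rose) summed to 41.3 to 83.9 CPM against 22.1 to 32.0 CPM, and astrocyte markers (Gfap rose, the other 3 did not pass) summed to 6414 to 8531 CPM against 7288 to 9228 CPM, with overlap. The part of these cells in the TRIM differences was not tested.

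Promoters of the 8 genes that rose are shown as RefSeq stretches (GRCm38.p6), each 5′ to 3′ on the strand of its gene. They run from 70 bases before to 30 bases after the annotated start. Capitals mark matches to GAAANNGAAA on either strand, the core of the interferon-stimulated response element to which IRF factors bind. Trim5, which did not pass, is included because its promoter resembles those of Trim12a and Trim12c. For Trim30a the start further upstream is shown. The stretch at its other RefSeq start (chr7:104446096-104446195, minus strand) also holds a match and is not printed.
Trim30a: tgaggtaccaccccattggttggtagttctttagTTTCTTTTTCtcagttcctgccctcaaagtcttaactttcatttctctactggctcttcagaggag
Trim30d: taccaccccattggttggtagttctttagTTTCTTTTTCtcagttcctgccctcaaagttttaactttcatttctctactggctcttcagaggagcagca
Trim12a: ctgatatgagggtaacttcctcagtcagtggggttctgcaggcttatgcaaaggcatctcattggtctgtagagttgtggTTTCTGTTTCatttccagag
Trim12c: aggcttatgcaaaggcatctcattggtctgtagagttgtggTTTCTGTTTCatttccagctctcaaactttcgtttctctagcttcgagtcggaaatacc
Trim5: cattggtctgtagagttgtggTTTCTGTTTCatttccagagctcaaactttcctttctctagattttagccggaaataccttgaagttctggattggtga
Trim34a: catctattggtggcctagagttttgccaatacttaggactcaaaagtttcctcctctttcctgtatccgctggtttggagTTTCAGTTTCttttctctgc
Trim21: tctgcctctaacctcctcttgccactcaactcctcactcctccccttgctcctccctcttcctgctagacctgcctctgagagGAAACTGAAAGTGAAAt
Trim25: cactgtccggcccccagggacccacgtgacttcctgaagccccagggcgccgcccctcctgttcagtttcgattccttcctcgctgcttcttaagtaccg
Trim56: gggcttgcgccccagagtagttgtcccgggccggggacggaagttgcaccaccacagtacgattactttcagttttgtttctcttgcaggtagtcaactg
The coordinates are chr7:104465164-104465263 (minus strand) for Trim30a, chr7:104507820-104507919 (minus) for Trim30d, chr7:104315466-104315565 (minus) for Trim12a, chr7:104353320-104353419 (minus) for Trim12c, chr7:104288077-104288176 (minus) for Trim5, chr7:104244387-104244486 (plus) for Trim34a, chr7:102565453-102565552 (minus) for Trim21, chr11:88999333-88999432 (plus) for Trim25 and chr5:137116178-137116277 (minus) for Trim56.

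Over the 300-base promoters (250 bases before to 50 after the start), 53 of the 68 members matched the RefSeq table. GAAANNGAAA was found in 6 of the 8 genes that rose (75%), in 3 of 28 members that did not pass (Trim2, Trim26 and Trim5; 10.7%) and in 0 of 17 untested members, beside 3.99% of 27025 genes. Trim25 and Trim56 held no match, which says only that these letters are not in that window. In Trim21 a pair of overlapping matches makes the capital run. The matches were not independent. Within the printed stretches, from 70 bases before to 30 after the start, the longest identical run was 59 bases between Trim30a and Trim30d. It was 59 bases between Trim12a and Trim12c, and 41 bases between Trim12a and Trim5. The printed stretches are cut at different annotated starts, and over the 300-base promoters these pairs share longer runs. All of these genes belong to the cluster. The other pattern searched, TTCNNNGAA, was in 0 of the 8 genes that rose and in 4 of 28 members that did not pass (14.3%). It was in 2 of 17 untested members (11.8%), beside 9.55% of 27025 genes. A match is a description of letters and not a bound site, and its part in the differences was not tested.

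All 8 genes that rose are on a list of 14 TRIM genes known as interferon-inducible, on which Trim5 is not. The list was drawn up with earlier results of these data known, so that overlap is only a description. Of the 14 genes, 11 were tested and 8 rose. Their median log2 fold change was 1.68, and over all genes tested 1.53% rose. The 3 that did not pass were Trim30c, Trim26 and Trim14, and Trim30b, Trim34b and Trim38 were untested. Trim30c and Trim14 reached the filter cutoff in 3 Caspase3 libraries but in only 0 and 2 GFP libraries. Trim26, known for roles in antiviral signalling, was at 28.7, 24.1 and 25.4 CPM in the Caspase3 libraries and 20.6, 18.1 and 15.5 CPM in the GFP libraries (log2 0.53 ± 0.13; adjusted p = 0.122, and 0.0485 in DESeq2). Trim14, a mitochondrial adaptor of RNA sensing that lacks a RING finger, was at 2.13, 0.999 and 1.22 CPM against 0.558, 0.316 and 0.614 CPM (log2 1.54 ± 0.40; adjusted p = 0.144). The groups of both genes were separate, but neither difference passed in edgeR, and the exons of Trim14 overlap 1356 bases of Nans on the opposite strand. Trim47 (log2 0.82 ± 0.29; adjusted p = 0.333), whose exons share 225 bases with Trim65, did not pass.

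Sorted by C-terminal domain, 7 of the 25 tested SPRY members rose (median log2 fold change 0.53), and so did Trim56 among 3 tested members with no further domain. Over all genes tested, 1.53% rose. No tested member rose or fell among the COS-FN3-SPRY proteins (6 tested, Mid1 and Mid2 included; median -0.10), the NHL proteins (4; -0.17), the PHD-bromodomain proteins (4; -0.03), the MATH, ARF or filamin-domain proteins (3; -0.17), the transmembrane members (2; 0.18) or the single tested COS member, Trim54 (-0.69). DESeq2 also called 0 in these classes, and at an unadjusted p under 0.05 in edgeR 3 of their genes had a negative difference, Trim71 (log2 -0.89 ± 0.33; adjusted p = 0.355), Mid2 (log2 -0.26 ± 0.10; adjusted p = 0.363) and Trim37. Of TRIM proteins that bear other names, Pml did not pass in edgeR (log2 0.77 ± 0.21; adjusted p = 0.179) but was called higher by DESeq2, and neither Mid1 (log2 0.42 ± 0.24; adjusted p = 0.604) nor Mid2 passed in either tool.

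The most abundant members per length did not pass in either direction. In deposited FPKM, which allows genes of different length to be compared, the GFP means were 88.1 for Trim44, 76.1 for Trim37, 57.2 for Trim32, 40.0 for Trim35, 29.8 for Trim9, 25.6 for Trim23, 25.4 for Trim2 and 18.2 for Trim28. The 8 that rose lay between 0.616 (Trim34a) and 2.70 (Trim56) FPKM, at ranks 21 to 36 of the 46. In the Caspase3 group they reached 2.23 (Trim12a) to 8.43 (Trim30a) FPKM, so that the most abundant of them stayed below the level of Trim28. Trim44 (88.1 ± 6.49 FPKM in the GFP group) and Trim37 (76.1 ± 4.47, SD, n = 3) held the top of that order, and the means of Trim23 and Trim2 differed by less than the SD between their libraries.

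**Figure D4:**
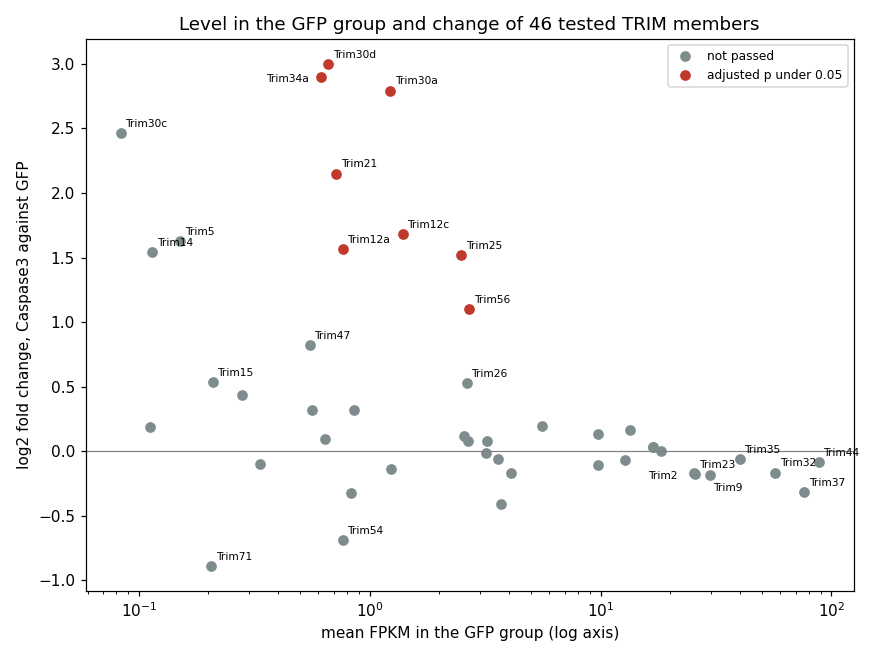
Mean FPKM in the GFP group (x axis, log scale) against log2 fold change (y axis) of the 46 tested TRIM genes, with the 8 at adjusted p under 0.05 in red. The 8 that rose sit between 0.616 and 2.70 FPKM, and the members above 20 FPKM have log2 fold changes between -0.31 and -0.06.

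The members known for neuronal roles showed small differences. All 8 of that list were tested, 0 passed in either direction in edgeR and in DESeq2, 1 (Trim37) had an unadjusted p under 0.05, and their median log2 fold change was -0.14. Trim37, a centrosome-regulating ligase, was at 385.5, 526.6 and 411.2 CPM in the Caspase3 libraries and 529.9, 582.2 and 533.2 CPM in the GFP libraries. All 3 Caspase3 values were the lower ones, by 1.24-fold, but the difference did not pass (log2 -0.31 ± 0.13; unadjusted p = 0.0431, adjusted p = 0.444). Trim9, a partner of the netrin receptor DCC in axon branching, was at 342.0, 398.2 and 377.4 CPM against 411.9, 426.5 and 429.4 CPM (log2 -0.18 ± 0.10; adjusted p = 0.578). Trim32, a ligase of neural progenitors and muscle, was at 156.8, 170.6 and 165.7 CPM against 173.0, 201.5 and 178.7 CPM (log2 -0.17 ± 0.10; adjusted p = 0.602). These groups did not overlap, as was also the case for Trim35 (log2 -0.06 ± 0.09; adjusted p = 0.844) and Trim62 (15.0, 11.1 and 15.6 against 17.8, 19.4 and 18.3 CPM; log2 -0.41 ± 0.15; adjusted p = 0.329). Such a separation, with Caspase3 below, was seen in 10.9% of the 46 tested members and in 6.29% of all genes tested.

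Trim2, which ubiquitinates neurofilament light chain, was at 387.1, 525.4 and 426.5 CPM in the Caspase3 libraries and 505.4, 538.7 and 461.7 CPM in the GFP libraries, with overlap (log2 -0.17 ± 0.13; adjusted p = 0.721). Trim44, an atypical member without a RING finger, overlapped too, at 441.9, 503.8 and 459.6 CPM against 503.6, 527.7 and 460.3 CPM (log2 -0.09 ± 0.11; adjusted p = 0.826). Trim23, which joins a RING finger to an ARF GTPase domain, had a log2 fold change of -0.17 ± 0.13 (adjusted p = 0.712). Trim28, the co-repressor that KRAB zinc finger proteins recruit to silence retroelements, was at 72.5, 75.3 and 79.0 CPM against 79.4, 74.2 and 73.6 CPM. Its log2 fold change was -0.0018 ± 0.083 (adjusted p = 0.997), and its sign turned under 6 alternatives. Among 9 partners of Trim28 in repression, such as Setdb1 and Cbx5, 0 passed in edgeR and in DESeq2 and 1 (Hdac1) had an unadjusted p under 0.05, with a median log2 fold change of 0.0017.

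The partners of the antiviral members rose in part. The partner lists were drawn up with earlier results of these data known. Their counts are descriptions, to be read beside the 1.53% of all genes tested that rose. Of 16 tested RIG-I pathway genes, 5 rose, 0 fell and the median log2 difference was 0.60. Isg15, the ubiquitin-like protein that Trim25 can attach (its log2 fold change was 4.66 ± 0.48; adjusted p = 0.0041), Ifih1 (2.26 ± 0.29; adjusted p = 0.0064) and Ddx58, which encodes RIG-I (2.48 ± 0.33; adjusted p = 0.0070), had the smallest adjusted p. Mavs, the adaptor below RIG-I, was at log2 0.24 (adjusted p = 0.726), and Tbk1, the kinase below it, at log2 0.0014 (adjusted p = 0.997). Of 16 tested interferon signalling genes 7 rose, among them Irf7 (4.11 ± 0.44; adjusted p = 0.0041) and Usp18 (4.31 ± 0.45; adjusted p = 0.0041), whereas the receptor gene Ifnar1 stood at log2 0.07 (adjusted p = 0.855). In the ubiquitin machinery, 2 of 12 tested genes rose, Ube2l6 (1.62 ± 0.26; adjusted p = 0.016) and Uba7 (2.01 ± 0.32; adjusted p = 0.016), the conjugating and activating enzymes for Isg15. Of 10 tested PML body genes, Sp100 rose (1.78 ± 0.34; adjusted p = 0.036). Mavs, Tbk1 and Ifnar1 were named after their values were seen.

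The calls depended on single libraries, GFP replicate 2 most. Without it 1 of the 8 passed, Trim30a (adjusted p = 0.0494), while the adjusted p was 0.0562 for Trim30d and Trim34a, 0.110 for Trim21, 0.143 for Trim25, 0.155 for Trim12c, 0.168 for Trim12a and 0.195 for Trim56, and the calls over all genes fell from 274 to 17. Without GFP replicate 3, 3 passed (Trim30a, Trim30d and Trim34a), and the adjusted p was 0.0656 for Trim21, 0.0770 for Trim25, 0.0970 for Trim12c, 0.101 for Trim12a and 0.128 for Trim56. Trim12c, Trim12a and Trim56 also missed the threshold without Caspase3 replicate 1 (0.0529 to 0.0600) and without Caspase3 replicate 2 (0.0723 to 0.0757). Without Caspase3 replicate 3 or GFP replicate 1 all 8 passed. The sizes moved less than the p-values. With 1 library left out, the log2 fold change ran from 2.59 to 3.03 for Trim30a, from 1.76 to 2.49 for Trim21 and from 0.88 to 1.33 for Trim56. The lists lost calls in the same way: without GFP replicate 2 none of the RIG-I, interferon signalling, ubiquitin or PML body genes passed, against 5, 7, 2 and 1.

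**Figure D5:**
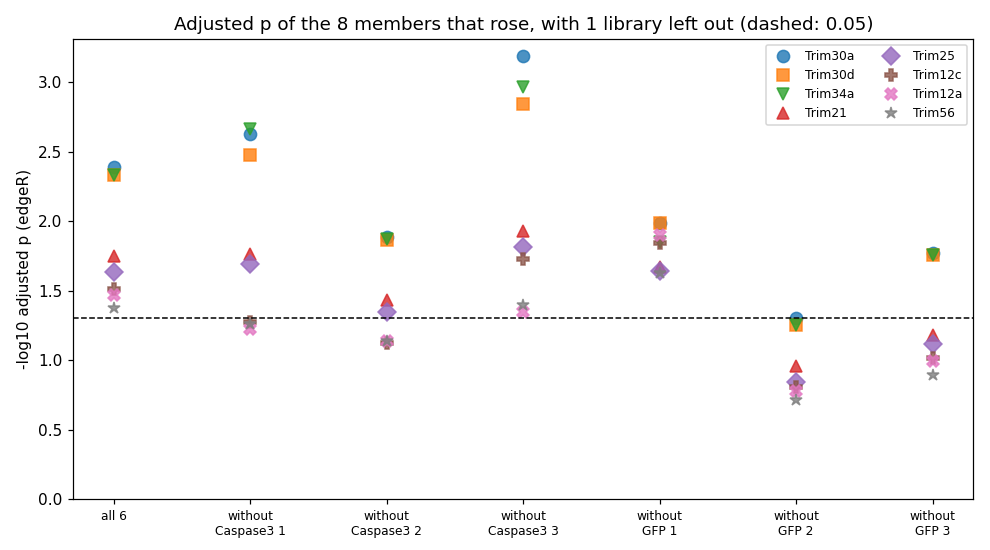
Negative log10 of the edgeR adjusted p (y axis) of the 8 TRIM genes that rose, with all 6 libraries and with each library left out (x axis), and a dashed line at an adjusted p of 0.05. Without GFP replicate 2 only Trim30a, at 0.0494, is above the line, and without Caspase3 replicate 3 or GFP replicate 1 all 8 are.

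The 22 untested members had few reads. Trim42 and Trim52 had 0 counts in all 6 libraries, 12 had 1 to 9 counts over the 6 libraries and 8 had 10 or more, the highest being Trim6 with 46. They did not pass the filter on low counts; without it 66 of the 68 members entered the fit. Besides the cluster genes already given, Trim63, a muscle ligase, had 24 counts in the Caspase3 group and 11 in the GFP group, Trim29 had 10 and 15, Trim43c 15 and 8, and Trim75 4 and 12. Members lay on 15 chromosomes, with 16 on chromosome 7 and 11 on chromosome 11.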

How the data were processed

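Poly(A) RNA was measured in 6 libraries, grouped and numbered by the sample titles. The deposited table held raw read counts per gene, and a second deposited table held FPKM, per the file headers. The submitters' processing notes list HISAT2, featureCounts, DESeq2, mm10 and GRCm38 without roles or versions. Strand use in the counting was not given in the sources used here, so reads of a gene and its antisense partner cannot be told apart.

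Counts of all 53715 genes were fitted in R 4.3.3 with edgeR 4.0.16 (TMM, filterByExpr, glmQLFit and glmQLFTest, group as the only term), and 16721 genes were tested with Benjamini-Hochberg adjustment, called at adjusted p under 0.05. CPM are counts over library total times TMM factor. SE is the absolute log2 fold change over the square root of F. The fit was tested on simulated data. Members and lists were chosen with earlier results of these data known. Named genes were those that passed, up to 6 others by smallest p, up to 8 others by highest FPKM, the tested genes of the chromosome 7 cluster, paralogs one letter apart and, per partner list, up to 3 by adjusted p; others were named after their values were seen. One gene that this rule names is not reported here. DESeq2 1.42.0, limma 3.58.1 (voom, and log2 FPKM with pseudocounts of 0.1 and 1), other scalings, filters and thresholds, a replicate block and leaving out libraries were alternatives. Motifs were searched in RefSeq promoters, and shared 50-base stretches in GENCODE M21 transcripts, where 66 of 68 members had identical coordinates. Protein identity between members was planned but is not analysed here. Figures were drawn with Matplotlib 3.10.9 in Python 3.11.15. Groups of 3 libraries allow no check for single outlying values.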

Additional observations from a re-analysis of the deposited data

How the results depend on the processing

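The count of 8 TRIM genes higher was 13 with no filter on low counts (Trim26, Trim5, Trim14, Trim30c and Trim30b added), 5 and 3 with limma on log2 FPKM with pseudocounts of 0.1 and 1, 5 without Caspase3 replicate 1 and GFP replicate 3 together, 3 at adjusted p under 0.01, and 1 to 8 with 1 library left out. It was 10 with DESeq2 (Trim5 and Trim26 added) and 8 with limma-voom, and 0 members were lower in every alternative run. The median log2 fold change of the tested members, 0.09, became 0.15 with library totals alone, which moved the median of all genes to 0.06. With 1 library left out, the counts higher ran from 1 to 8 for the interferon-inducible TRIM genes, 1 to 7 for SPRY members, 0 to 1 for members with no further domain, 0 to 5 for RIG-I partners, 0 to 7 for interferon signalling, 0 to 2 for the ubiquitin genes and 0 to 1 for PML body genes, of which DESeq2 called 3 and limma-voom 0. Trim28 turned positive, at 0.0068 with upper-quartile factors, 0.0603 with library totals and 0.0093 without Caspase3 replicate 1 and GFP replicate 3, and ran from -0.0496 to 0.0329 with 1 library left out. The cause was not tested. Deviations of same-numbered libraries from their group means had correlations of 0.103, 0.273 and 0.0412, beside -0.180 to 0.0753 for differently numbered ones. For replicate 3 the value was below those of Caspase3 replicate 1 with GFP replicate 3 (0.0753) and Caspase3 replicate 3 with GFP replicate 1 (0.0440). Deviations within a group cancel out, so these correlations depend on each other. The sample titles state no pairing, and the main fit did not use the numbers. Whether they pair the libraries is not settled by these values. With a replicate block the count of members higher was 9, Trim5 being added, and the calls over all genes rose from 274 to 421. The no-filter fit made 913 calls over all genes, DESeq2 497 and limma on log2(FPKM + 1) 170. Members under 10 counts over 6 libraries were not tested with the filter on low counts.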
